A study of Sus scrofa with 4 samples.

Results

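The enzymes that write, copy and remove DNA methylation were followed in pig blastocysts raised with or without ethanol. The 9 genes were the methyltransferases DNMT1, DNMT3A and DNMT3B, the recruiter UHRF1, the oxygenases TET1, TET2 and TET3, the glycosylase TDG and the methyl-binding domain gene MBD3. Members were the array probes whose platform gene symbol was any of these names. This gave 15 of 43794 probes, for 8 of the 9 genes, and no probe carried the name DNMT3A. Of the 15, 9 probes for 6 genes were bright enough to be compared between treatments.

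Porcine zygotes developed for 7 days to expanded blastocysts in the porcine embryo medium PZM3, either with 0.2% ethanol or with no added compound. The protocol in the labels has the ethanol embryos grown in tightly closed glass vials, and does not say whether control embryos were grown in such vials. A difference in vials, if there was one, cannot be told apart from ethanol. Each RNA sample was a pool of 10 blastocysts, and each of 4 two-colour arrays carried 1 ethanol pool beside 1 control pool. The dyes were swapped, the ethanol pool carrying Cy5 on arrays 1 and 3 but Cy3 on the other pair, and the control pool the opposite dye. A pool mixes the lineages of the blastocyst, and fewer cells of a type and less RNA per cell cannot be told apart.

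Cytosine methylation is placed on unmethylated DNA by DNMT3A and DNMT3B and is copied to the new strand at each replication by DNMT1, which UHRF1 brings to hemimethylated DNA. TET1, TET2 and TET3 oxidise 5-methylcytosine, and TDG excises some of the oxidised bases so that repair can restore an unmodified cytosine. MBD3, despite its methyl-binding domain, is known mainly as a subunit of the NuRD remodelling and deacetylase complex. In mammals the genome loses much of its methylation between fertilisation and the blastocyst and is then methylated again. In mouse embryos TET3 acts mainly in the zygote, while TET1 is prominent in the inner cell mass.

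Values are normalized log2 intensities of single channels, or log2 ratios of ethanol over control from a limma fit that estimates a dye term for each probe, with its standard error (SE). The 4 array pairs are the replicates, and their number limits the precision. The labels do not say whether pools came from separate cultures, and the p-values then measure only the spread between these samples, which may be technical. Of all probes, 70.4% to 73.5% were above background in Cy3 channels and 45.3% to 57.3% in Cy5 channels. Among trophectoderm markers, 11 of 13 had a probe above background, including CDX2, GATA3, KRT8 and KRT18. Of the inner cell mass markers 7 were on the array, and POU5F1, ESRRB and DPPA5 were above background while SOX2, KLF4, PRDM14 and FGF4 were not. For scale, 7343 of the 11059 named genes on the array had a probe above background. So did all 10 cumulus and granulosa markers on the array, so passing this filter does not by itself mark a cell type.

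No member passed the adjusted threshold of 0.05, and neither did any other of the 25899 probes tested (0%). The smallest adjusted p was 0.511 by limma, and 1883 probes were under an unadjusted p of 0.05 (7.27%), 3.54% of those tested being higher with ethanol and 3.73% lower. Of the 9 member probes tested, 4 were under that unadjusted p, and all 4 were higher with ethanol. These 4 were the probe of TET1 and 3 probes of DNMT1, which share a gene and are not independent. Counted by gene on its brightest probe, they were 2 of 6 members, against 9.03% of the 7343 named genes in either direction and 4.83% in this one. Of the 6 member genes 2 had a ratio above 0, as did 49.6% of named genes, and their median was -0.02.

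DNMT1, the maintenance methyltransferase, was represented by 4 probes, of which 3 were above background and all 3 had ratios above 0. The brightest, EMPV1_29752, had log2 intensities of 7.90, 8.62, 8.02 and 8.69 in the ethanol pools of arrays 1 to 4, against 7.54, 8.16, 7.87 and 8.26 in the control pools. The ethanol pool was brighter than the control pool on all 4 arrays, although the groups overlapped, since arrays 2 and 4 were brighter than arrays 1 and 3 in both pools. Its fitted log2 ratio was 0.35 (SE 0.07), or 1.27-fold with a 95% interval of 1.12-fold to 1.44-fold (limma, unadjusted p = 0.00393, adjusted p = 0.511).

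The probe EMPV1_13504 of DNMT1 had 7.72, 8.16, 7.60 and 8.13 in ethanol pools, against 7.35, 7.73, 7.53 and 7.97 in control pools. It too was brighter in the ethanol pool of all 4 arrays. A ratio of one sign on all 4 arrays, before the dye term, was found for 9.17% of probes tested. Its log2 ratio was 0.25 (SE 0.09; limma, unadjusted p = 0.0311, adjusted p = 0.635). Without array 1 it was 0.18 (unadjusted p = 0.15) and without array 2 it was 0.19 (unadjusted p = 0.145), by limma.

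The probe EMPV1_05769 was close to background. Its channels lay at 7.40, 6.69, 7.17 and 6.74 in ethanol pools, against 6.80, 6.88, 6.57 and 6.73 in control pools, and its spots were 1.01 to 1.47 times as bright as the background threshold. Its ratio was 0.60 on arrays 1 and 3 before the dye term, against -0.19 on array 2 and 0.01 on array 4, the higher values being those with ethanol RNA in Cy5. The fitted dye coefficient, the part of the Cy5 over Cy3 ratio that did not follow the treatment, was 0.34. The fitted log2 ratio was 0.26 (SE 0.07; limma, unadjusted p = 0.0138, adjusted p = 0.556), and it was 0.11 when mean pixel signals replaced median ones. The fourth DNMT1 probe, EMPV1_12473, was above background in 1 ethanol and 1 control channel and was not tested; with no filter on dim probes its ratio was -0.05 (SE 0.10). With the 3 tested probes averaged, DNMT1 had a log2 ratio of 0.29 (SE 0.07).

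UHRF1, which recruits DNMT1, could not be compared. Its probe EMPV1_27512 was above background in 1 ethanol and 1 control channel, and EMPV1_40357 in 2 ethanol and 2 control channels. For EMPV1_40357 the deposited median intensities were 75, 164, 67 and 226 in the ethanol channels of arrays 1 to 4, against 200, 83, 166 and 70 in the control channels. The brighter values were those in Cy3 in either treatment. In every Cy3 channel this probe exceeded the threshold, and in no Cy5 channel did it do so. With no filter on dim probes the ratios were 0.00 for EMPV1_27512 and 0.05 for EMPV1_40357.

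DNMT3B, a de novo methyltransferase, had 3 probes and only EMPV1_00980 was above background on all arrays. It had 7.28, 7.77, 7.49 and 7.84 in ethanol pools, against 7.77, 7.36, 7.91 and 7.54 in control pools. The ethanol pool was dimmer on arrays 1 and 3 and brighter on arrays 2 and 4, so the sign of each array's ratio followed the dye, and the dye coefficient was -0.40. The fitted log2 ratio was -0.05 (SE 0.07), with a 95% interval of 0.86-fold to 1.09-fold (limma, adjusted p = 0.978). The other DNMT3B probes were above background in no ethanol and 1 control channel (EMPV1_01956) and in 2 ethanol and 2 control channels (EMPV1_08844).

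**Figure D1:**
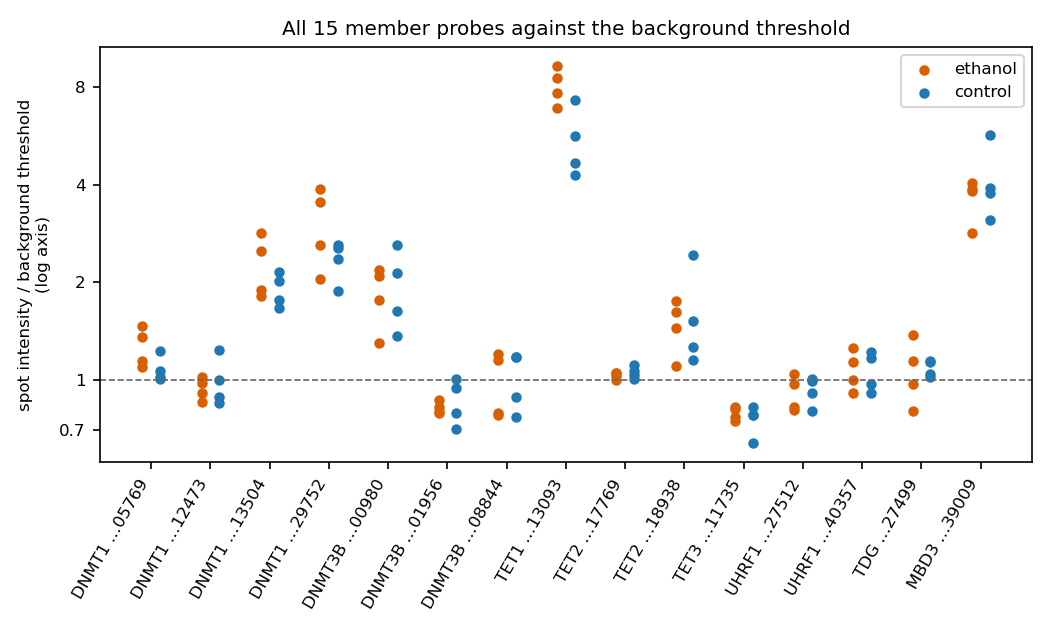
Deposited spot intensity divided by the background threshold of the same array and channel (vertical log axis) for all 15 member probes, named by gene and the last digits of the probe. Orange points are the 4 ethanol channels and blue points, to their right, the 4 control channels. The dashed line at 1 is the threshold, below which all 8 channels of TET3 lie, while TET1 stands at 4.27 to 9.32 times the threshold.

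TET1, which oxidises 5-methylcytosine, had the largest ethanol over control ratio among the members tested. Its only probe, EMPV1_13093, gave normalized log2 intensities of 9.83, 9.90, 9.31 and 10.02 in the ethanol pools of arrays 1 to 4, against 9.26, 8.999, 9.42 and 9.14 in the control pools. The ethanol pool was the brighter on arrays 1, 2 and 4 and slightly dimmer on array 3, and the groups overlapped only through the array 3 pair. The means were 9.77 ± 0.32 in ethanol pools and 9.20 ± 0.18 in control pools (SD, n = 4 each). The fitted log2 ratio was 0.56 (SE 0.12), a 1.48-fold difference with a 95% interval of 1.20-fold to 1.82-fold. In limma this had an unadjusted p of 0.0041 and an adjusted p of 0.511, so it did not pass. Of all probes tested, 0.32% had a ratio at least as large in either direction.

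The TET1 ratio differed between the dye orientations. As measured, with no dye term, it was 0.58 and -0.11 on arrays 1 and 3, where ethanol RNA carried Cy5, and 0.90 and 0.89 on arrays 2 and 4, where it carried Cy3. The dye coefficient was -0.33. Ethanol and control values of a dye come from different arrays, so comparing them drops the pairing and takes in array brightness. Set side by side in this way, both TET1 ethanol values lay above both control values, by at least 0.17 in Cy5 and at least 0.48 in Cy3. This arrangement held for 1.35% of the probes tested, and among the member probes for TET1 only. For DNMT1 the lowest ethanol value lay below the highest control value in 1 dye. The gap was -0.37 in Cy5 for EMPV1_29752, -0.38 in Cy5 for EMPV1_13504 and -0.11 in Cy3 for EMPV1_05769. Paired within arrays, the order differed: EMPV1_29752 and EMPV1_13504 were brighter with ethanol on 4 arrays, TET1 and EMPV1_05769 on 3. The TET1 ratio was 0.39 without array 1 and 0.74 without array 3.

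**Figure D2:**
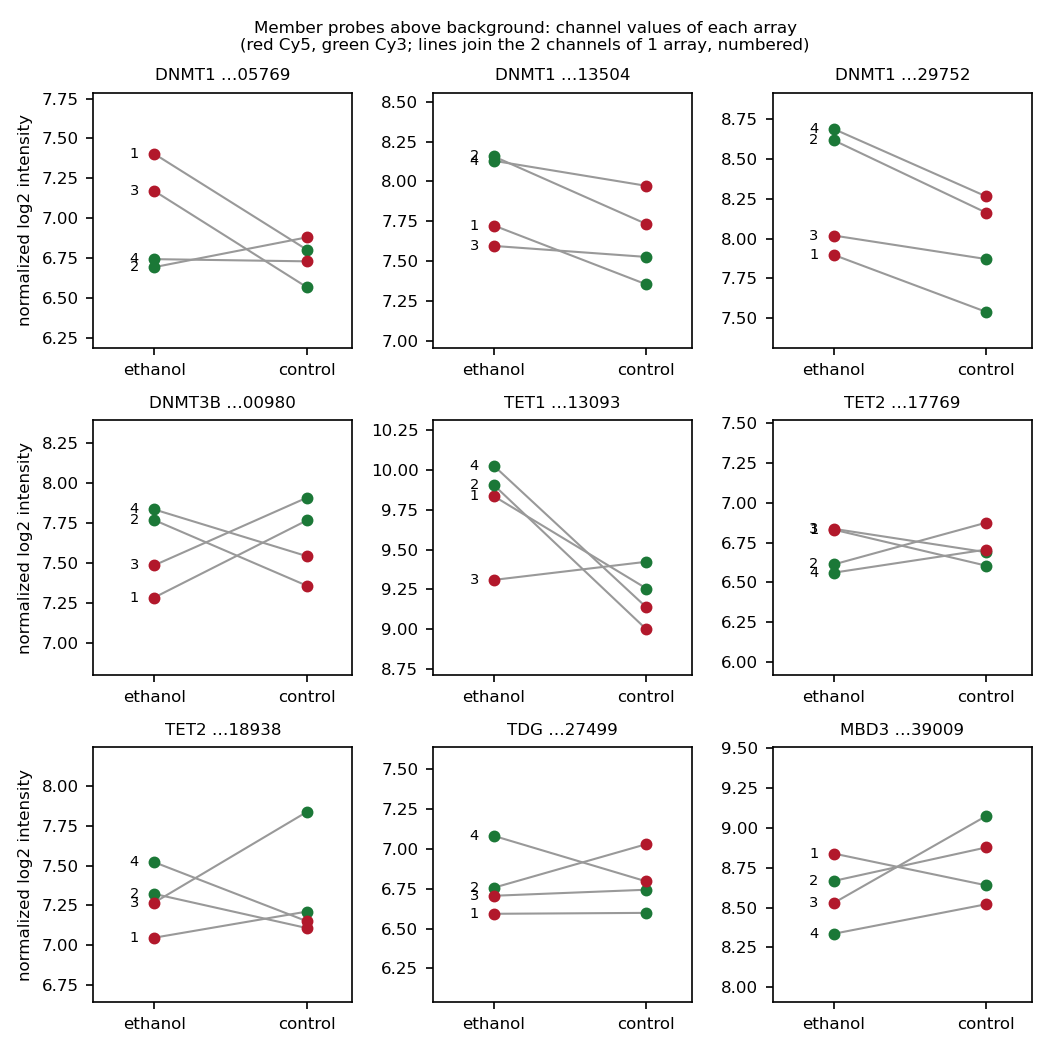
Normalized log2 intensity (vertical axis) of the 9 member probes above background in ethanol pools, at the left of each panel, and control pools, at the right. Each point is a channel, red for Cy5 and green for Cy3, and a grey line joins the 2 channels of an array, whose number stands beside it. Every panel spans the same range of 1.6 log2 units. The ethanol pool is the brighter on all 4 arrays for DNMT1 probes EMPV1_13504 and EMPV1_29752 and on 3 arrays for TET1.

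TET2, the other oxygenase with a tested probe, had ratios near 0 on both of its probes, and the difference from TET1 was not tested. For EMPV1_18938 the log2 intensities were 7.05, 7.32, 7.27 and 7.52 in ethanol pools, against 7.21, 7.11, 7.84 and 7.15 in control pools. As for DNMT3B, the ethanol pool was dimmer with Cy5 and brighter with Cy3, and the dye coefficient was -0.33. The fitted log2 ratio was -0.04 (SE 0.09), with an interval of 0.83-fold to 1.14-fold (limma, adjusted p = 0.991).

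The second TET2 probe, EMPV1_17769, had 6.83, 6.61, 6.84 and 6.56 in ethanol pools, against 6.61, 6.88, 6.69 and 6.71 in control pools. Here the ethanol pool was brighter with Cy5 and dimmer with Cy3, the opposite of EMPV1_18938, and the dye coefficient was 0.20. After the dye term the probes gave similar ratios, and EMPV1_17769 stood at -0.01 (SE 0.07), with an interval of 0.88-fold to 1.12-fold (limma, adjusted p = 0.999). The spots of EMPV1_17769 were 0.995 to 1.11 times the background threshold, so its ratio near 0 and narrow interval add little on TET2. With the offset of the background correction at 0, its ratio was -0.02 (SE 0.11).

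TET3, the oxygenase of the zygote in mouse, was represented by EMPV1_11735, which was not above background in any channel. Its intensities were 63, 119, 50 and 146 in ethanol channels, against 141, 71, 106 and 46 in control channels, all below the threshold of their channel. No ratio can be read from it.

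TDG, the glycosylase that follows the TET enzymes, lay at the edge of detection. EMPV1_27499 had 6.59, 6.76, 6.71 and 7.08 in ethanol pools, against 6.60, 7.03, 6.74 and 6.80 in control pools. It entered the test through its control channels, which exceeded the threshold on all 4 arrays, against 2 arrays for ethanol RNA. The ethanol pool was brighter on array 4 only. The fitted log2 ratio was -0.01 (SE 0.11), with an interval of 0.83-fold to 1.19-fold (limma, adjusted p = 0.999), and it was -0.15 without array 4 and 0.13 without array 2.

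MBD3, the NuRD subunit, was well above background in every channel. EMPV1_39009 had 8.84, 8.67, 8.53 and 8.34 in ethanol pools, against 8.64, 8.88, 9.07 and 8.52 in control pools. The ethanol pool was dimmer on arrays 2, 3 and 4 and brighter on array 1, and the groups overlapped. The fitted log2 ratio was -0.19 (SE 0.13), with an interval of 0.70-fold to 1.10-fold (limma, unadjusted p = 0.203, adjusted p = 0.885). The value rested on single arrays, being 0.00 without array 3 and -0.37 without array 1, where its unadjusted p was 0.00985 and its adjusted p 0.717 by limma.

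**Figure D3:**
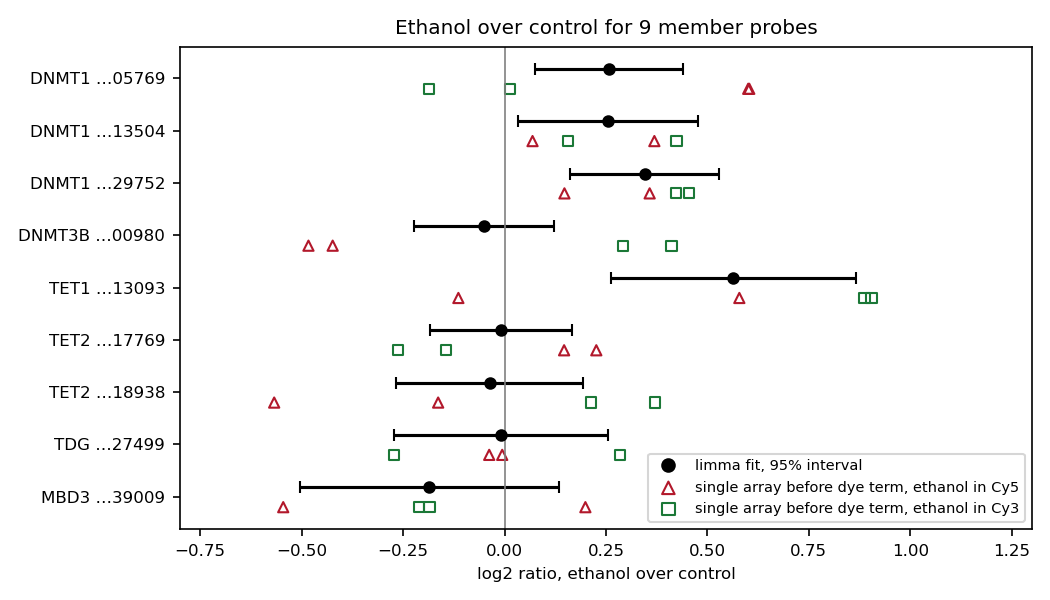
Log2 ratio of ethanol over control (horizontal axis) for the 9 member probes, named by gene and the last digits of the probe. Black points are the limma fit with its 95% interval, and open symbols are the single arrays before the dye term, triangles with ethanol RNA in Cy5 and squares with it in Cy3. Intervals of TET1 and of the 3 DNMT1 probes lie above 0, those of DNMT3B, TET2, TDG and MBD3 include 0, and no probe passed the adjusted threshold.

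Proteins that work with these enzymes were compared as a list of 53 names, comprising methylation readers, NuRD subunits, histone methyltransferases, base excision repair enzymes and suppliers of the methyl donor. The suppliers, MAT2A and MAT2B, had no probe under these symbols, so donor supply was not compared. Of the 53, 30 had a probe above background, with 16 ratios above 0 and 14 below and a median of 0.01, against 49.6% above 0 and a median of -0.00 over all 7343 named genes. None passed the adjusted threshold. An unadjusted p under 0.05 was met by 2 of the 30 (6.67%), close to the 9.03% of named genes. XRCC1, the scaffold of single-strand break and base excision repair, had -0.27 (SE 0.08) and was lower with ethanol on all 4 arrays, at -0.35, -0.21, -0.17 and -0.36 before the dye term. CDK2AP1, which is found in NuRD, had 0.30 (SE 0.08) and was higher on all 4 arrays, at 0.24, 0.55, 0.20 and 0.20.

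The log2 ratios of 12 partners that bind or work with a member, picked after their values were seen, were as follows. UHRF2, the paralogue of UHRF1, had -0.09, USP7, a deubiquitinase that binds DNMT1, had -0.05, and HELLS, a remodeller needed for normal methylation, had 0.16 on its brighter probe and -0.01 on the other. Among the NuRD subunits that work with MBD3, the helicase CHD4 had 0.02, the deacetylases HDAC1 and HDAC2 had 0.05 and 0.13, and MTA2 and MTA3 had -0.03 and 0.03. MBD2, which takes the place of MBD3 in a separate form of the complex, had 0.16. The glycosylases MBD4 and UNG, which like TDG remove bases, had 0.16 and 0.00, and OGT, the sugar transferase that binds TET proteins, had -0.03. None of these 12 was under an unadjusted p of 0.05, but the choice fixed that count, since the 2 partners under it were described above. CDK2AP1, which is among those 2, is also of NuRD.

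DNMT1 and UHRF1 work at replication forks, so genes of DNA replication and S phase were set beside them. Of 31 listed, 18 were measured, with 7 above 0, 11 below and a median of -0.07. None passed the adjusted threshold, and 2 were under an unadjusted p of 0.05 (11.1%), close to the 9.03% of named genes in either direction. Both were lower with ethanol, as were 4.19% of named genes at that p. RFC4, a clamp loader subunit, had -0.24 (SE 0.08). GINS2, of the replicative helicase, had -0.37 (SE 0.13), with its 3 probes between -0.37 and 0.03 and a dye coefficient of 0.68. The highest ratio in the list, named after its values were seen, was that of MCM4, another helicase subunit, at 0.28 (SE 0.12), within the 0.25 to 0.35 of the DNMT1 probes; its other probe had -0.16. Leaving out array 1 gave a list median of -0.0427, leaving out array 3 gave -0.0394, and leaving out array 2 gave -0.111. The difference between DNMT1 and this list was not tested.

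Lineage markers of the blastocyst were set beside TET1. All 3 measured inner cell mass markers were below 0, with ESRRB at -0.26 (SE 0.10, unadjusted p = 0.04 by limma), DPPA5 at -0.27 (SE 0.11) and POU5F1 at -0.06 (SE 0.08). Of 11 trophectoderm markers 8 were below 0, with a median of -0.15, and 3 of them, PPAG3 at -0.38, TEAD4 at -0.29 and GATA2 at -0.18, were under an unadjusted p of 0.05 and lower with ethanol, as were ESRRB among the inner cell mass markers and 4.19% of named genes (9.03% in either direction). Of all named genes 49.6% were above 0. Of 5 hypoblast markers 4 were above 0, with a median of 0.09. No marker passed the adjusted threshold. These values are of the brightest probe, and other probes of a gene could differ. Across its probes POU5F1 ran from -0.23 to -0.06, DPPA5 from -0.40 to -0.27 and TEAD4 from -0.34 to -0.07. DAB2, of the trophectoderm, ran from -0.19 to 0.23, and COL4A1, of the hypoblast, from 0.02 to 0.27. Cumulus and granulosa markers (10 measured) had a median of 0.02 and a range from -0.24 to 0.08, and the 2 measured blood and sperm markers lay at -0.08 and 0.06. The part of lineage shares in the TET1 and DNMT1 ratios was not tested.

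**Figure D4:**
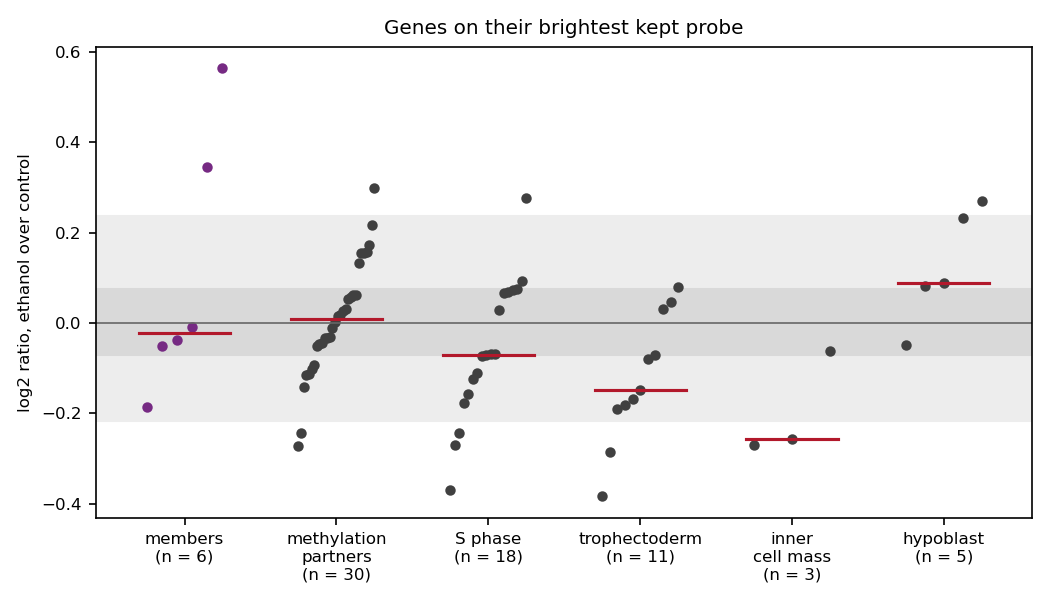
Log2 ratio of ethanol over control (vertical axis) of genes on their brightest tested probe, with a red bar at each list's median. Purple points are the 6 member genes, the dark band spans the 25th to 75th percentile and the light band the 5th to 95th of all 7343 named genes, the light one from -0.22 to 0.24. TET1 and DNMT1 lie above the light band, and the other 4 members lie within it.

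The genes whose pattern was most like that of each of the 2 members with the smallest p were found by Pearson correlation over the 8 channel values, after each dye was centred for each probe. The channels of an array share its hybridisation, so the 8 values are not independent. For DNMT1 they were BPNT1 (r = 0.997), RND3 (r = 0.988) and ATP2C1 (r = 0.982), with log2 ratios of 0.18, 0.40 and 0.17. For TET1 they were MANEA (r = 0.979), DIS3 (r = 0.951) and SIK3 (r = 0.941), with log2 ratios of 0.31, 0.18 and 0.23. These genes were picked on the same values that hold the treatment difference, so their ratios are not a separate result. Of the 7342 other genes, 55 exceeded r = 0.9 with DNMT1 and 18 with TET1. Such counts were not made for other genes. The correlation between TET1 and DNMT1 themselves was 0.514.

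**Figure D5:**
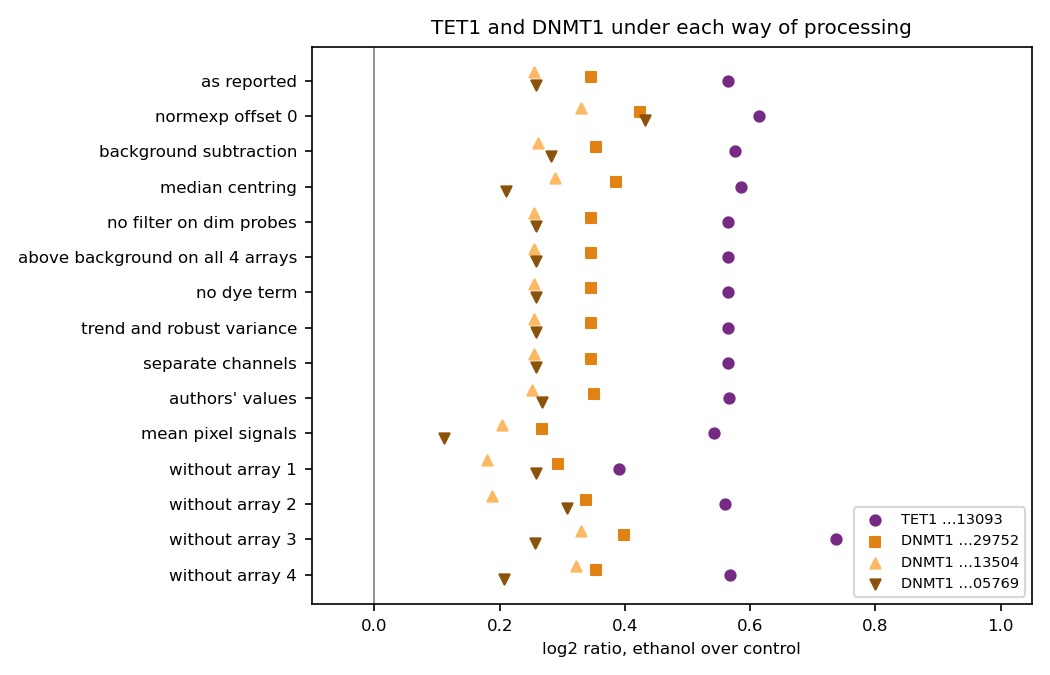
Log2 ratio of ethanol over control (horizontal axis) of TET1 and of the 3 tested DNMT1 probes under the reported processing and 14 others (rows). Each symbol is a probe. All lie above 0 in every row, TET1 between 0.39 and 0.74 and the DNMT1 probes between 0.11 and 0.43. Changing the filter, the dye term or the variance model, or fitting separate channels, left each ratio identical to the reported one. Those rows could not change its sign.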

How the data were processed

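RNA passed through 2 rounds of T7 amplification before dyes were coupled to guanine, per the labels, and how this affects each transcript was not tested. Per the file headers, the deposited scanner files give raw spot intensity and local background in each dye. Median pixel signals were used. In the authors' deposited series table the values are log2 ratios by an unstated normalization. Its columns correlated at 0.985 to 0.997 with log2 ratios (Cy5 over Cy3) made from the scanner values by loess, with slopes of 0.93 to 1.02 and column medians of -0.0138, -9.35e-05, 0.00378 and 0.00108, which sets its scale and direction. A further table with 4 columns that match no sample label was not used. Neither slides nor scan dates are in the labels, and batches were not tested.

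With limma 3.58.1 (R 4.3.3), normexp background correction (offset 50) was applied and ratios were normalized by loess within each array, with weight 0 for the 1426 spots that are not probes. A probe was above background where its spot was brighter than the 95th percentile of 153 negative-control spots in the same channel of the array. Probes were tested if this was so on 3 or more arrays in the ethanol or in the control channels. The model had an ethanol and a dye coefficient, leaving 2 residual degrees of freedom, and Benjamini-Hochberg adjustment covered all 25899 tested probes. Saturated spots, up to 2 an array, were kept. Channel values were made comparable between arrays by Aquantile.

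Names are the platform's: 18121 probes have 1 symbol, 0 have several and 25673 have none. Of 6 member probes with an accession, 5 matched the same symbol in the Sscrofa11.1 RefSeq table. No sequence of a probe or gene was used here. The text names all member probes, list genes at an unadjusted p under 0.05 (at most 8 partners and 4 of S phase), partners that bind or work with a member (picked after their values were seen), and 3 genes most like each of 2 members. The members and lists were chosen with earlier results of these data known. The fit was tested on simulated data with known changes. Alternatives covered background correction, normalization, the filter, the dye term, the variance model, separate channels, the authors' values, mean pixels, averaging a gene's probes and leaving out each array.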

Additional observations from a re-analysis of the deposited data

Results flagged for a closer look

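The ratios of 13 probes before the dye term, those of the 9 tested member probes and 4 list genes, were searched for a lone array standing apart. It marked 1, where chance alone marks about 1 in 20 for values drawn from a single distribution. The ratios were taken before the dye term, so a dye difference can part the arrays by dye and mask a lone array. The CDK2AP1 probe stood at 0.55 on array 2, against 0.24, 0.20 and 0.20 on arrays 1, 3 and 4, a gap of 0.896 of the whole range, which is above Dixon's 95% critical value for 4 samples. No member was marked, and the nearest were DNMT1 probe EMPV1_29752, at 0.684, and TET1, at 0.68.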

How the results depend on the processing

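The count of probes past the adjusted threshold was 0 under the 14 alternatives run on it. Probes under an unadjusted p of 0.05 numbered 879 without the dye term, against 1883, and 1297 to 2607 under the others except no filter on dim probes, which gave 2704. Member probes under that p numbered 3 or 4 throughout, but not always the same ones: without array 1, MBD3 was among them, lower with ethanol (unadjusted p = 0.00985 by limma), and EMPV1_13504 was not. TET1 and the DNMT1 probe EMPV1_29752 stayed under it in 14 of 14 alternatives, EMPV1_13504 in 12 (not without array 1 or 2) and EMPV1_05769 in 11 (not with mean pixels, without the dye term or without array 4). All 4 kept their sign, but the sign was fixed where only the filter, the dye term or the variance model changed, and with separate channels. There the ratio equalled the reported one, and only the p-value could move. Their adjusted p was never below 0.226, the TET1 value with separate channels. With 1 array left out in turn, MBD3 ran from -0.37 to 0.000825, TDG from -0.15 to 0.13, and the TET2 probes from -0.0378 to 0.0207 (EMPV1_17769) and from -0.14 to 0.0642 (EMPV1_18938), so these crossed 0; TDG was also 0.0367 with median centring. Methylation partners under the unadjusted p numbered 5 with mean pixels, 4 without the filter and 1 to 2 with an array left out, the 1 being without array 1. For S phase the count was 0 without the dye term, 1 with a gene's probes averaged, with normexp offset 0 and with the trended, robust variance, and 1 to 3 with an array left out, the 1 being without array 3. The S-phase median was -0.00925 with mean pixels and ran from -0.111 to -0.0394 with an array left out. The causes of these changes were not tested. Of the 15 member probes, 6 were too dim for a comparison, and EMPV1_05769, EMPV1_17769 and the TDG probe lay close to the threshold. Every choice listed here was made with earlier results known.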
